A study of Homo sapiens with 89 samples.

Results

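SHEP, a human neuroblastoma line of the mesenchymal kind without amplified MYCN, was compared with and without an inducible wild type MYCN construct by sequencing of polyadenylated RNA. Transcripts of ribosome assembly, of the stress response run by ATF4, of NF-kB signalling and of the ERK and AP-1 pathways were more often higher than lower in the libraries labelled wild type MYCN. Transcripts of fibrillar collagens, of matrix glycoproteins and of mitosis were more often lower than higher. The 3 columns of the SHEP table labelled wild type MYCN were set against the 3 labelled no MYCN, 6 of the 89 samples of the series, and all 57905 genes of the table were members, of which 14923 had enough counts to be tested. The cells labelled wild type had 1 µg/ml doxycycline, the inducer of the construct, and those labelled no MYCN had none, so MYCN and doxycycline cannot be told apart. The other 3 SHEP libraries carried MYCN 3A, a mutant form that per the labels binds RNA poorly, also with 1 µg/ml doxycycline. They entered the same fit and are used for values side by side. Whether the replicates are separate cultures is not in the labels, so p-values reflect only how these libraries vary, which may be technical. The 6 libraries held 12931268 to 15353505 counts.

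MYCN belongs to the MYC family of transcription factors. With its partner MAX it binds E-box DNA, whose usual core is CACGTG, and in neuroblastoma its amplification marks aggressive tumours. MYC proteins are known for raising the transcripts that build ribosomes, import and make amino acids and nucleotides, and drive the cell cycle, and for lowering transcripts of adhesion and matrix. Mesenchymal neuroblastoma cells are known for high collagen, AP-1 and NF-kB activity, and adrenergic ones for the transcription factors of sympathetic neurons.

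MYCN itself (ENSG00000134323) was nearly absent from the counts of every group. It had 4, 0 and 0 counts in the no MYCN libraries, 2, 0 and 0 in those labelled wild type and 10, 0 and 0 in those labelled 3A. It was too low to be tested, and 3 counts, the most that a count of 0 allows, correspond to 0.186 to 0.264 CPM, where CPM is the count scaled by library size and composition. The counts therefore give no check of the label from the targeted gene, and every direction below is that of the libraries labelled wild type. Whether the construct's transcript could be counted for the MYCN gene model was not tested. MYC (ENSG00000136997, chromosome 8, 128747680 to 128753674, hg19) stood at 11.6, 12.6 and 10.01 CPM in the no MYCN libraries and 5.302, 8.31 and 6.78 CPM in those labelled wild type. All 3 libraries labelled wild type were below all 3 without MYCN (log2 fold change -0.75, SE 0.21, edgeR adjusted p = 0.012). The call was lost without wild type replicate 1 or without no MYCN replicate 2, where the adjusted p reached 0.061.

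Whole chromosomes moved with the group. Over the genes of chromosome 18 the median log2 difference between the libraries labelled wild type and no MYCN was 0.39, taken over genes with a mean of at least 3 log2 CPM, with 93.2% of 146 such genes on the positive side, and the 3 libraries labelled wild type each stood at 0.39 to 0.43. Of 222 tested genes there, 90 were higher and 9 lower by the edgeR test used below. The medians of chromosomes 21, 11 and 10 were also positive, at 0.19, 0.15 and 0.14. Chromosome 14 had a median of -0.24, with 17 genes higher and 156 lower of 521 tested, and chromosomes 22 and 17 stood at -0.145 and -0.14. The SD of the 23 chromosome medians was 0.134, against 0.0365 between the libraries labelled 3A and no MYCN and 0.0093 to 0.0377 for single no MYCN libraries around their group. Along chromosome 14 each of the 6 blocks of 50 neighbouring genes was lower, from -0.38 to -0.16, and along chromosome 11 each of 11 blocks was higher. Chromosome 1 was mixed, with blocks from -0.15 to 0.25. Whether the groups differ in chromosome copy number was not tested. With each chromosome's median set to 0, 2427 of the 3315 calls below were kept, and with the median of the 101 nearest genes set to 0, 2217 were kept. On chromosome 18 only 22 of 99 calls were kept under either setting.

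**Figure D1:**
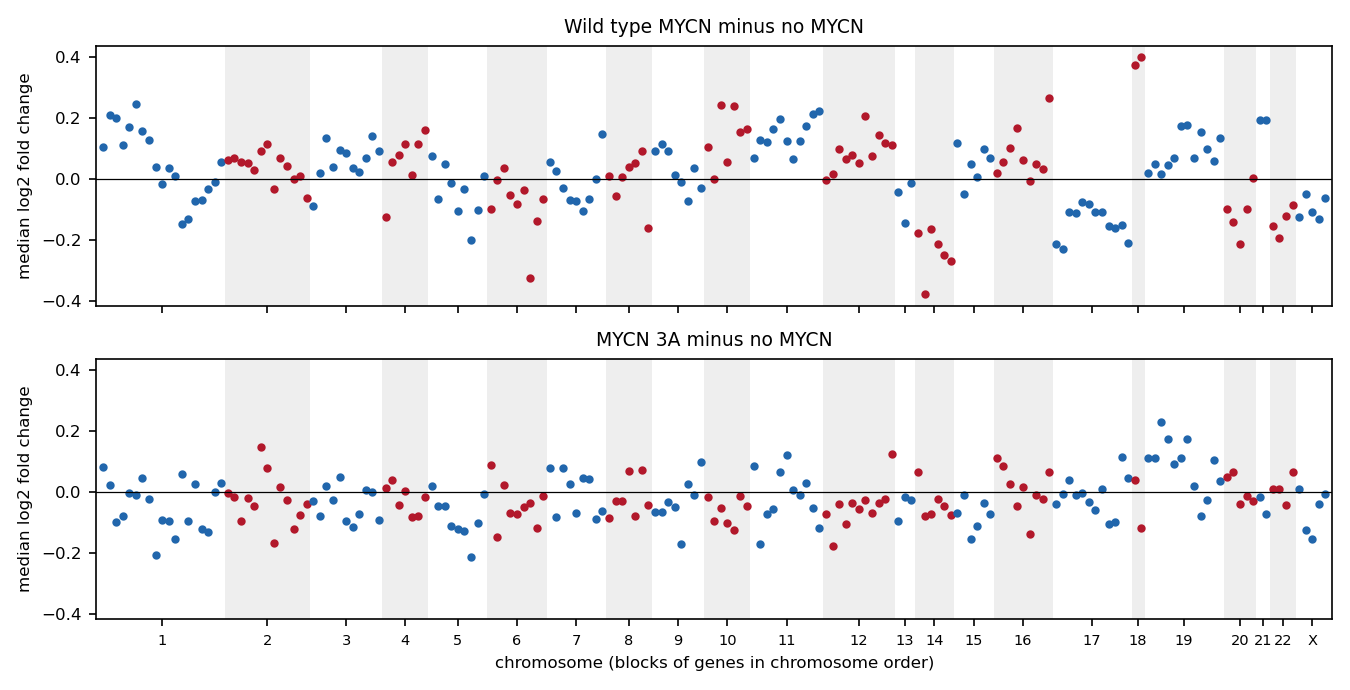
Median log2 difference between the libraries labelled wild type MYCN and no MYCN (top, vertical axis) and between those labelled 3A and no MYCN (bottom) for consecutive blocks of 50 genes along each chromosome (horizontal axis), each point 1 block, with colour and shading alternating by chromosome. In the top panel the points of chromosome 18, whose median is 0.39, stand highest and all those of chromosome 14, whose median is -0.24, lie below 0.

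Of the 14923 tested genes, 3315 (22.2%) differed at an adjusted p under 0.05 in edgeR's quasi-likelihood test, 1634 (10.9%) of them higher and 1681 (11.3%) lower in the libraries labelled wild type. With plain library totals as the scale the split was 1163 higher to 2147 lower, and the median of all genes moved by -0.07 on the log2 scale. Most rises were small: 66.5% of them were under 1.5-fold and 36 reached 4-fold, while 46.1% of the falls were under 1.5-fold and 105 reached 4-fold. At least 2-fold higher were 200 genes (1.34%) and at least 2-fold lower 434 (2.91%). The counts of each gene group below are to be read against 10.9% higher and 11.3% lower. Ranges of the 2 groups that do not overlap were common, in 5596 tested genes (37.5%), 2755 (18.5%) higher and 2841 (19.0%) lower. The genes that rose were the more abundant, with a median of 5.92 log2 CPM against 4.37 for those that fell. In 4 equal classes of the mean level, from the lowest to the highest, 26.4, 35.5, 46.5 and 69.6% of the called genes were higher. The plot of change against level shows this slope.

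**Figure D2:**
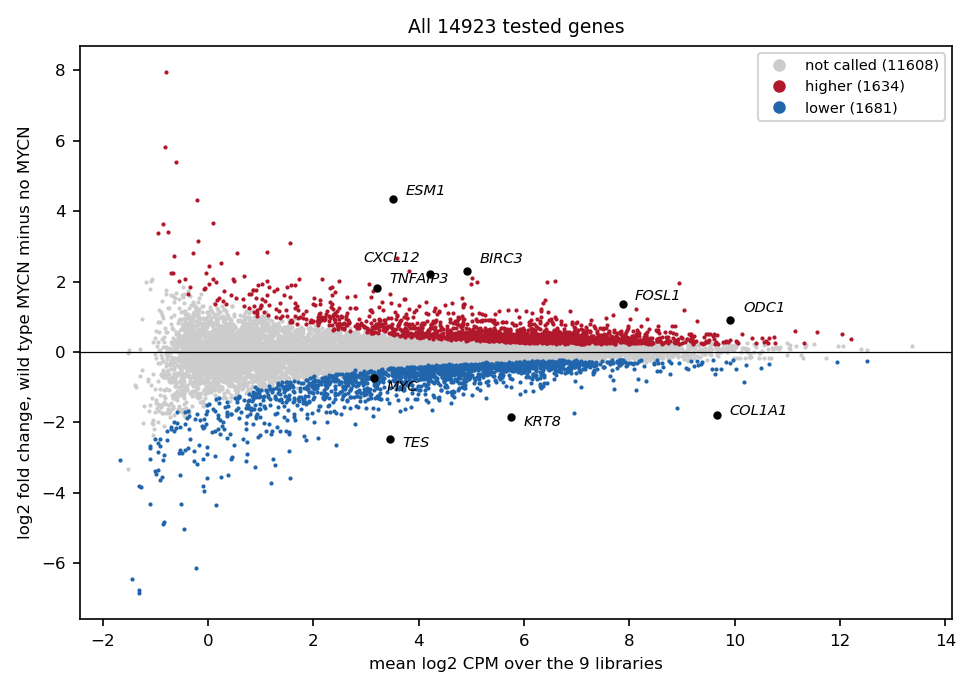
Log2 fold change of the libraries labelled wild type MYCN over no MYCN (vertical axis) against mean log2 CPM (horizontal axis), each point 1 tested gene, with genes called higher in red, called lower in blue and not called in grey, and labelled genes in black. In the lowest of 4 classes of level 26.4% of the called genes are higher, in the highest 69.6%.

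Among genes with a mean of at least 3 log2 CPM the largest rise was that of ESM1, an endothelial proteoglycan, which went from 2.48, 2.69 and 2.16 CPM to 49.6, 49.4 and 51.4 CPM (log2 fold change 4.35, SE 0.17, edgeR adjusted p = 1.5e-14). ARHGAP22, a GTPase activator for Rac, stood at 4.59, 4.03 and 5.54 CPM in the no MYCN libraries and 29.6, 29.5 and 30.6 CPM in those labelled wild type (log2 fold change 2.66, SE 0.17, edgeR adjusted p = 1.6e-10). The rule that picked the largest rises required ranges of the 2 groups that do not overlap. TMEM158, a membrane protein known from RAS-driven senescence, went from 39.7, 40.8 and 49.7 CPM to 159, 179 and 183 CPM. PPIF, the mitochondrial cyclophilin of the permeability pore, went from 235, 242 and 271 CPM to 904, 978 and 1039 CPM. DIO2, which activates thyroid hormone, lies on chromosome 14, where most genes fell, and went from 3.595, 3.66 and 5.33 to 15.97, 17.8 and 14.3 CPM. In all 3 genes the lowest library labelled wild type was more than 2 times the highest no MYCN library.

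Among the 15 largest falls outside the matrix, BMP5, a bone morphogenetic ligand, stood at 20.4, 27.6 and 22.6 CPM in the no MYCN libraries and 6.53, 8.03 and 8.19 CPM in those labelled wild type (log2 fold change -1.63, SE 0.18, edgeR adjusted p = 7.6e-07). GFPT2, the enzyme that opens the hexosamine pathway, stood at 22.2, 26.9 and 25.1 CPM in the no MYCN libraries and 8.77, 8.097 and 7.98 CPM in those labelled wild type (log2 fold change -1.57, SE 0.14, edgeR adjusted p = 4.7e-08). Ranges that do not overlap were part of the rule that picked both. ADGRG1, an adhesion G protein-coupled receptor, went from 17.7, 19.2 and 13.03 to 6.12, 3.51 and 4.38 CPM. AHNAK2, a giant scaffold protein gene on chromosome 14, went from 45.4, 39.6 and 36.3 to 16.6, 15.8 and 12.1 CPM, a log2 change of -1.45 (SE 0.15) and of -1.19 with the median of its neighbours set to 0. The libraries labelled wild type varied in the size of the fall, most of all for ADGRG1, from 3.51 to 6.12 CPM. SDC3, a heparan sulphate proteoglycan, changed by -1.63 (SE 0.17) and ACSF2, an acyl-CoA synthetase, by -1.45 (SE 0.16).

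Transcripts of ribosome assembly rose more often than they fell, from the polymerase that makes ribosomal RNA to the factors that build both subunits. Of 14 tested genes of RNA polymerase I, which copies ribosomal DNA, 7 were higher and 0 lower, with a median log2 change of 0.27 against -0.0044 over all tested genes. Of 37 genes of the small subunit processome 15 were higher and 0 lower, with a median of 0.22. Of 38 large subunit assembly factors 24 were higher and 1 lower, with a median of 0.33, and of 11 snoRNP proteins, which guide ribosomal RNA modification, 6 were higher and 0 lower. The count of RNA polymerase I genes fell to 4 with either chromosomal setting, with library totals and without no MYCN replicate 3, and to 2 without no MYCN replicate 2. The single fall in the large subunit group, DDX56, a helicase, changed by -0.24 (SE 0.08) and lost its call in 9 of 14 alternatives.

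The promoters of some members show the E-box that MYC proteins are known to bind. Of 9596 tested protein-coding genes with a RefSeq promoter of 300 bases, 10.2% held CACGTG, which reads the same on both strands. The share was 13.8% among genes that rose and 6.90% among genes that fell. In the planned set, genes changed at least 2-fold, it was 9.09% (Wilson 95% interval 5.01 to 15.9%) of those higher. Of those at least 2-fold lower it was 6.69%. It was 16 of 35 (45.7%, Wilson 95% interval 30.5 to 61.8%) in the small subunit processome, 12 of 32 (37.5%) among large subunit assembly factors and 9 of 25 (36.0%) among classical MYC targets. It was 1 of 13 (7.69%) among RNA polymerase I genes and 2 of 21 (9.52%) among exosome genes, against the 10.2% of all tested genes. A match is a string in the window and not a measured site. The 250 bases before the start of 4 genes that rose are shown 5′ to 3′ on the gene's strand, from RefSeq on GRCh38.p14, with CACGTG in capitals. They are EBNA1BP2, a large subunit assembly factor (chr1:43172571-43172820, minus strand), POLR1G, a subunit of RNA polymerase I (chr19:45406394-45406643, plus strand), EXOSC5, a core subunit of the RNA exosome (chr19:41397360-41397609, minus strand), and CDK4, the G1 kinase (chr12:57752311-57752560, minus strand).
EBNA1BP2: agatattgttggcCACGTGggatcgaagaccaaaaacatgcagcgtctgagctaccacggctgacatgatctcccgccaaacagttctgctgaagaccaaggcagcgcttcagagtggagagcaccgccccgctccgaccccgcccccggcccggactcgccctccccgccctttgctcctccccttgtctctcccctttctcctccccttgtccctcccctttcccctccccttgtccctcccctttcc
POLR1G: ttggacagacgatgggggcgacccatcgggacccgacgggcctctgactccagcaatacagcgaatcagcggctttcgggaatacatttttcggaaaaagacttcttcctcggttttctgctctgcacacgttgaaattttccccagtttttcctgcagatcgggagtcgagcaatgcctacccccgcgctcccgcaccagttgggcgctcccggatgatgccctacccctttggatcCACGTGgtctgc
EXOSC5: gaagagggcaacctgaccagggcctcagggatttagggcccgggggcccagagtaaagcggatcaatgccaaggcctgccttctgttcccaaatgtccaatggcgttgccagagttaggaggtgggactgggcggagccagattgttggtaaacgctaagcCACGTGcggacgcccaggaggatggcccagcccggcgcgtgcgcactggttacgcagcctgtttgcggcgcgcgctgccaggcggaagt
CDK4: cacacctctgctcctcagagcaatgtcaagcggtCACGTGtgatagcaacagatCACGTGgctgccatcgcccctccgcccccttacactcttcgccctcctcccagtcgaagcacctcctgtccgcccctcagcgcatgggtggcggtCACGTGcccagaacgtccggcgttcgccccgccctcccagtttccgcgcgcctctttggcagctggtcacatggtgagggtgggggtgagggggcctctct

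The E-box begins 12 bases before the start of POLR1G, 237 before that of EBNA1BP2 and 89 before that of EXOSC5, and CDK4 holds 3, at 216, 196 and 101 bases before its start. POLR1G stood at 62.1, 64.2 and 71.7 CPM in the no MYCN libraries and 115, 129 and 137 CPM in those labelled wild type (log2 fold change 0.94, SE 0.10, edgeR adjusted p = 2.3e-07). EBNA1BP2 stood at 324, 328 and 349 CPM in the no MYCN libraries and 433, 506 and 555 CPM in those labelled wild type (log2 fold change 0.58, SE 0.09, edgeR adjusted p = 4.1e-05). In both, the lowest library labelled wild type was above the highest no MYCN library. CDK4 went from 418, 424 and 457 to 524, 578 and 652 CPM, a change of 0.43 (SE 0.09). EXOSC5 went from 57.96, 55.2 and 67.1 to 74.8, 89.3 and 98.9 CPM, a change of 0.55 (SE 0.11). All 4 calls held in each of the 14 alternatives run, with EBNA1BP2 at 0.35 with the neighbours' median set to 0.

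Other assembly genes gave changes of the same order. NOL6, a processome scaffold, stood at 149, 134 and 141 CPM in the no MYCN libraries and 249, 218 and 220.1 CPM in those labelled wild type (log2 fold change 0.69, SE 0.08, edgeR adjusted p = 1.7e-06). GNL2, a GTPase of the large subunit, stood at 115, 108 and 102 CPM in the no MYCN libraries and 182, 171 and 161 CPM in those labelled wild type (log2 fold change 0.66, SE 0.08, edgeR adjusted p = 3.7e-06). Neither pair of groups overlapped. WDR43 and NOP14 of the processome changed by 0.63 (SE 0.09) and 0.53 (SE 0.08). RRS1, which builds the central protuberance, changed by 0.63 (SE 0.08) and DDX21, a nucleolar helicase, by 0.51 (SE 0.08). FBL, the methyltransferase of box C/D particles, changed by 0.56 (SE 0.10), NOLC1, a nucleolar chaperone of snoRNPs, by 0.56 (SE 0.08) and NPM1, the nucleolar histone chaperone, by 0.59 (SE 0.08). All of these passed the edgeR test in all 14 alternatives.

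Of 27 tested classical MYC targets 17 were higher and 1 lower, with a median of 0.33, and with the neighbours' median set to 0 the counts were 19 and 0. TFRC, the transferrin receptor, stood at 105, 89.7 and 95.2 CPM in the no MYCN libraries and 202, 168 and 149.5 CPM in those labelled wild type (log2 fold change 0.84, SE 0.11, edgeR adjusted p = 3.8e-06). CTPS1, which makes CTP, stood at 183, 183 and 194 CPM in the no MYCN libraries and 283, 276 and 291 CPM in those labelled wild type (log2 fold change 0.60, SE 0.08, edgeR adjusted p = 5.6e-06). Both groups of libraries were apart for each gene, and with the neighbours' median set to 0 CTPS1 stood at 0.38. SHMT1, the cytosolic serine hydroxymethyltransferase on chromosome 17, was the target that fell, by 0.33 on the log2 scale, and it was not called with either chromosomal setting. Of 24 genes of purine and pyrimidine synthesis 9 were higher, among them CAD, which starts pyrimidines, at 0.47 (SE 0.10). The 2 that were lower, CTPS2 and IMPDH2, lost their calls in 6 and 5 of the 14 alternatives, among them the fits without wild type replicate 1 or 2 or no MYCN replicate 3. TYMS, the thymidylate synthase gene on chromosome 18, changed by 0.41 (SE 0.08) and by 0.04 with the neighbours' median set to 0.

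Genes of amino acid supply and of the ATF4 program rose more often than they fell. In the integrated stress response, which ATF4 runs when amino acids are short, 29 genes were tested, of which 16 were higher and 2 lower, with a median of 0.40. Of 17 amino acid transporters 6 were higher and 1 lower, with a median of 0.40. SLC38A1, a glutamine carrier, stood at 17.6, 19.1 and 17.1 CPM in the no MYCN libraries and 52.5, 47.9 and 39.1 CPM in those labelled wild type (log2 fold change 1.37, SE 0.13, edgeR adjusted p = 1.1e-07). SLC7A11, the cystine carrier, stood at 44.8, 40.8 and 41.3 CPM in the no MYCN libraries and 92.8, 93.2 and 68.9 CPM in those labelled wild type (log2 fold change 1.01, SE 0.12, edgeR adjusted p = 2.8e-06). Replicate 3 labelled wild type was the lowest of its group in both genes and still above every no MYCN library. SLC1A5, the main glutamine importer, changed by 0.74 (SE 0.08), and ALDH18A1, which starts proline synthesis, by 0.68 (SE 0.08). GADD45A, a stress gene shared with p53, went from 80.7, 69.8 and 79.5 to 127, 139 and 157 CPM. SLC43A2, a carrier of branched amino acids whose gene is on chromosome 17, went the other way, from 5.21, 7.09 and 9.29 to 3.47, 3.44 and 2.401 CPM. The members of the stress response that fell were DDIT4, an mTORC1 inhibitor, at -0.65 (SE 0.18), and CBS, of transsulphuration, at -1.76 (SE 0.44). Without wild type replicate 2 or no MYCN replicate 3 only 1 of these falls was called. CBS was low, at 2.54, 3.73 and 3.74 CPM in the no MYCN libraries. It stood at 1.36, 0.143 and 1.41 CPM in those labelled wild type, from 20, 2 and 20 counts. Its change ranged from -2.11 to -1.24 over the 14 alternatives.

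Serine and folate enzymes, which feed nucleotide synthesis, rose more often than they fell: of 15 tested 6 rose and 2 fell. MTHFD2, the mitochondrial folate dehydrogenase, stood at 134, 146 and 132 CPM in the no MYCN libraries and 213, 230.4 and 219 CPM in those labelled wild type (log2 fold change 0.68, SE 0.08, edgeR adjusted p = 2.5e-06). PHGDH, the first enzyme of serine synthesis, and SHMT2, the mitochondrial hydroxymethyltransferase, changed by 0.62 (SE 0.10) and 0.47 (SE 0.08). SHMT1 was among those that fell. Of the 2 falls 1 was lost under either chromosomal setting, with no filter on low counts and without wild type replicate 2 or 3 or any no MYCN replicate. Of 16 tested tRNA synthetases 5 were higher, with YARS1 at 0.56 (SE 0.08) and TARS1 at 0.39 (SE 0.08). Of 36 initiation factors 10 were higher and 0 lower, with EIF3M at 0.46 (SE 0.09) and EIF3A at 0.39 (SE 0.08), or 0.24 with the neighbours' median set to 0. Both counts fell with library totals and without no MYCN replicate 2 or 3, to 3 synthetases and 6 initiation factors. With library totals 2 initiation factors were called lower. NARS1, a synthetase gene on chromosome 18, changed by 0.51 (SE 0.08) and by 0.11 with the neighbours' median set to 0.

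In the genes of finished ribosomes and of mitochondria replicate 1 was the lowest library of both the wild type and the no MYCN label. Of 78 tested cytosolic ribosomal protein genes 10 (12.8%) were higher and 1 lower, with a median of 0.14. The share higher was near the 10.9% of all tested genes. The median of the group, each library against the mean of the no MYCN libraries, was -0.08, 0.18 and 0.31 in the 3 libraries labelled wild type. It was 0.37, 0.37 and 0.49 in those labelled 3A. Each no MYCN library, set against the other no MYCN libraries, stood at -0.098, -0.035 and 0.137, in the same order of replicate number. Without wild type replicate 1 the count of rises was 42, and without wild type replicate 2 or 3 or no MYCN replicate 1 it was 3, and 4 without no MYCN replicate 2. With chromosome medians set to 0 only 2 were higher and with the neighbours' median set to 0 none, and RPL17, on chromosome 18, changed by 0.49 (SE 0.09) and by 0.09 with the neighbours' median set to 0. Of 51 nuclear genes of the respiratory chain 7 (13.7%) were higher and 1 lower, also near the 10.9%. Without wild type replicate 1 the higher genes were 18. Without wild type replicate 2 or 3 or no MYCN replicate 1 or 2 they were 2 or 3. No rise was called under either chromosomal setting. The balance turned with library totals, to 3 higher and 5 lower, and with chromosome medians set to 0, to 0 higher and 3 lower. Of 74 mitochondrial ribosomal proteins 17 were higher and 1 lower, and 10 were higher under either chromosomal setting and 10 or 11 without wild type replicate 2 or 3 or no MYCN replicate 1. The falls in the cytosolic and mitochondrial ribosomal groups were those of RPS4X and MRPL28. RPS4X was lost under either chromosomal setting, and MRPL28 without wild type replicate 1 or 2 or no MYCN replicate 2 or 3. Some members held in all alternatives, such as MRPL37 at 0.54 (SE 0.09) and MRPL15 at 0.45 (SE 0.08). Of 24 genes of mitochondrial import 9 were higher and 0 lower, among them TOMM34 at 0.56 (SE 0.09) and TOMM40, the outer membrane pore, at 0.51 (SE 0.09).

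The nuclear RNA exosome, which trims and degrades nuclear RNA, is named in the title of the series. Of 25 tested genes of the exosome and its targeting complexes 7 were higher and 0 lower, with a median of 0.20. The count was 3 under either chromosomal setting, with library totals and without no MYCN replicate 2, and 4 without wild type replicate 2 or no MYCN replicate 1 or 3. Besides EXOSC5, ZC3H18, which links the exosome to the cap-binding complex, kept its call in all alternatives, at 0.34 with the neighbours' median set to 0. It stood at 77.4, 64.7 and 67.1 CPM in the no MYCN libraries and 119, 98.4 and 94.96 CPM in those labelled wild type (log2 fold change 0.58, SE 0.10, edgeR adjusted p = 1.8e-04). EXOSC10, the nuclear catalytic subunit, stood at 90.1, 83.7 and 69.5 CPM in the no MYCN libraries and 106, 91.5 and 82.6 CPM in those labelled wild type, with groups that overlap and a change of 0.20 (SE 0.11) that did not pass (edgeR adjusted p = 0.19). Its change was 0 with the neighbours' median set to 0.

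**Figure D3:**
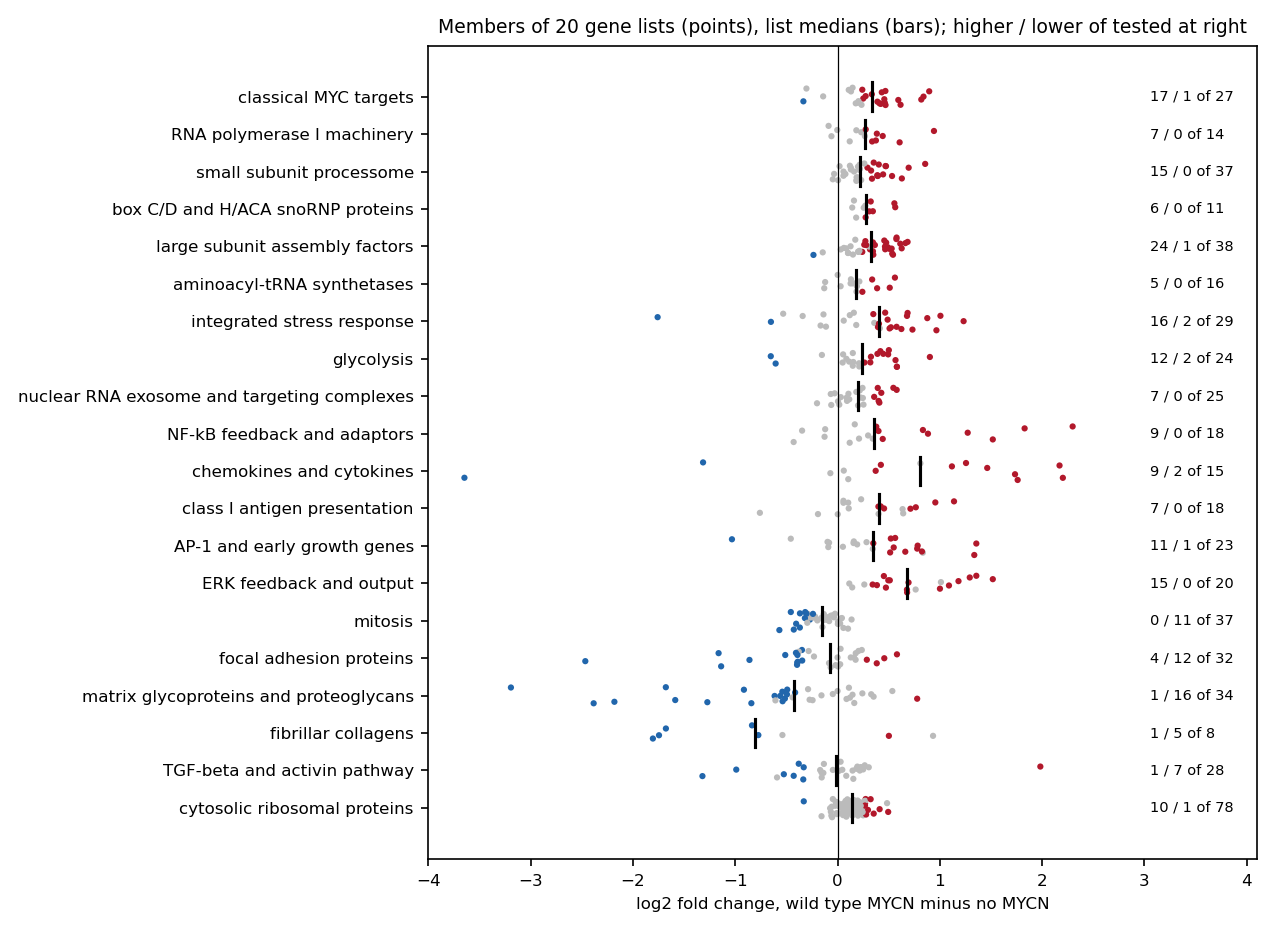
Log2 fold change of the libraries labelled wild type MYCN over no MYCN (horizontal axis) for 20 gene groups (rows), each point 1 tested gene, red where called higher by edgeR, blue where called lower and grey where not called, with a black bar at the median of the group and the counts at the right. Chemokines have a median of 0.81, ERK genes 0.68 and large subunit assembly factors 0.33, and fibrillar collagens -0.81.

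More NF-kB transcripts rose than fell. NF-kB is a family of dimeric factors that inflammatory signals release into the nucleus, and it induces its own subunits and inhibitors. Of 5 tested subunit genes 3 were higher: RELB stood at 16.4, 14.2 and 17.4 CPM in the no MYCN libraries and 29.8, 32.2 and 40.95 CPM in those labelled wild type (log2 fold change 1.10, SE 0.15, edgeR adjusted p = 1.2e-05), NFKB2 changed by 0.58 (SE 0.11) and NFKB1 by 0.50 (SE 0.10). RELA and REL changed by 0.23 (SE 0.09) and 0.33 (SE 0.20) and did not pass. Of 18 feedback and adaptor genes 9 were higher and 0 lower, with a median of 0.36. BIRC2, a ubiquitin ligase of the TNF receptor complex, stood at 107, 93.2 and 83.9 CPM in the no MYCN libraries and 172, 172 and 163 CPM in those labelled wild type (log2 fold change 0.83, SE 0.10, edgeR adjusted p = 1.4e-06). Every library labelled wild type was above every no MYCN library in RELB and BIRC2.

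Of 15 tested chemokines and cytokines 9 were higher and 2 lower, with a median of 0.81. CXCL5, a neutrophil attractant, stood at 53.99, 45.01 and 53.6 CPM in the no MYCN libraries and 133, 149 and 138 CPM in those labelled wild type (log2 fold change 1.46, SE 0.11, edgeR adjusted p = 1.9e-09). CXCL8, of the same receptor family, stood at 4.59, 3.73 and 5.904 CPM in the no MYCN libraries and 17.8, 14.9 and 14.7 CPM in those labelled wild type (log2 fold change 1.73, SE 0.21, edgeR adjusted p = 2.0e-06). The groups of CXCL5 were far apart, and for CXCL8 the rule for the 15 largest rises required ranges that do not overlap. CSF1, the macrophage growth factor, changed by 1.12 (SE 0.13). The members that fell were IL11, a cytokine of the IL6 family, at -1.31 (SE 0.14) and 11.8, 13.04 and 14.3 CPM in the libraries labelled wild type, and CXCL16, which was at 1.74, 0.896 and 1.15 CPM in the no MYCN libraries and 0.272, 0 and 0 CPM in those labelled wild type, at most 4 counts a library. Of 16 surface and matrix genes that NF-kB is known to induce, 5 were higher and 4 lower. PLAUR, the urokinase receptor, PTX3, a secreted pentraxin, and CD83, a surface immunoglobulin, changed by 0.91 (SE 0.10), 0.91 (SE 0.11) and 0.93 (SE 0.13). SERPINE2, a protease inhibitor, went the other way, from 95.2, 97.3 and 93.3 to 53.3, 58.2 and 63.1 CPM, and TNFAIP6, a hyaluronan-binding protein, changed by -1.58 (SE 0.40).

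Promoters of 4 genes that rose in these groups or among the 15 largest rises are shown in the same way, 250 bases before the start on GRCh38.p14. For BIRC3 (chr11:102317234-102317483, plus strand) and TNFAIP3 (chr6:137867009-137867258, plus strand), both feedback genes, capitals mark the NF-kB string, which is GGG, any 2 bases and TTTCC in a row, searched on both strands. For FST (chr5:53480379-53480628, plus strand) and CXCL8 (chr4:73740319-73740568, plus strand) capitals mark TGANTCA, the AP-1 string, also searched on both strands. The match of BIRC3 begins 199 bases before the start, those of TNFAIP3 at 67 and 55, that of FST at 160 and that of CXCL8 at 137. TNFAIP3 also holds an E-box, left in lower case, 78 bases before its start, which overlaps neither NF-kB match.
BIRC3: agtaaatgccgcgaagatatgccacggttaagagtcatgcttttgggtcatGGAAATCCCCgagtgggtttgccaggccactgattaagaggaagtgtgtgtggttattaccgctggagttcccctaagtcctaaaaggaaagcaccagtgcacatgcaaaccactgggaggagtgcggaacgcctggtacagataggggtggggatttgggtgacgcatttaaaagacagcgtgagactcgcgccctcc
TNFAIP3: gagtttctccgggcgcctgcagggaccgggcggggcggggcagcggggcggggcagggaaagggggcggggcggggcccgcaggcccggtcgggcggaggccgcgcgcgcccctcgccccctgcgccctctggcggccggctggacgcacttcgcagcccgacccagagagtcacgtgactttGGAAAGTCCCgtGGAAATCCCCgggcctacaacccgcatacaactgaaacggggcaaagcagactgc
FST: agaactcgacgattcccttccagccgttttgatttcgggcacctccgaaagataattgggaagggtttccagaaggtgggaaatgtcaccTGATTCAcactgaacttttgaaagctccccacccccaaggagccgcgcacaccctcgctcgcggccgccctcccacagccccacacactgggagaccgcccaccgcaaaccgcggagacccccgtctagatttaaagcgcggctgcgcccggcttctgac
CXCL8: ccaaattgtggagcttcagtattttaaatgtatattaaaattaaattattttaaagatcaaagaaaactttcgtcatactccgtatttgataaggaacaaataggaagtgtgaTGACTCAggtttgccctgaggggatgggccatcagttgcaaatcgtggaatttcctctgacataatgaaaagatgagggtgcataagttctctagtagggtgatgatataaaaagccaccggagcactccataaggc

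Of all tested protein-coding promoters 2.16% held the NF-kB string, 3.32% of those of genes that rose and 1.43% of those of genes that fell, and 5 of 17 NF-kB feedback genes (29.4%). TGANTCA was in 4.42% of all, 5.67% of those that rose and 4.76% of those that fell. BIRC3, an inhibitor of apoptosis, stood at 16.3, 13.3 and 11.4 CPM in the no MYCN libraries and 66.1, 66.6 and 69.4 CPM in those labelled wild type (log2 fold change 2.30, SE 0.13, edgeR adjusted p = 2.6e-11). TNFAIP3, the deubiquitinase that ends NF-kB signalling, stood at 4.34, 4.78 and 5.33 CPM in the no MYCN libraries and 17.4, 17.2 and 16.7 CPM in those labelled wild type (log2 fold change 1.83, SE 0.17, edgeR adjusted p = 8.6e-08). The 3 libraries labelled wild type lay within a narrow range in both genes, and far above the no MYCN libraries. Both are among the largest rises, whose rule required ranges that do not overlap.

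Some genes of class I antigen presentation rose and most did not pass. Of 18 tested class I genes 7 were higher and 0 lower, with a median of 0.40. TAP2, a peptide transporter, stood at 17.7, 18.96 and 21.5 CPM in the no MYCN libraries and 37.9, 35.6 and 39.1 CPM in those labelled wild type (log2 fold change 0.96, SE 0.12, edgeR adjusted p = 5.7e-06). PSMB8, an immunoproteasome subunit, stood at 9.79, 9.11 and 11.5 CPM in the no MYCN libraries and 17.7, 23.2 and 26.1 CPM in those labelled wild type (log2 fold change 1.14, SE 0.16, edgeR adjusted p = 2.2e-05). Neither overlapped between groups. NLRC5, the class I transactivator, and B2M, the light chain, changed by 0.76 (SE 0.15) and 0.40 (SE 0.08). Of 25 interferon response genes 4 (16.0%) were higher, against 10.9% of all tested genes, and 2 lower: OAS3, an RNA sensor, at 1.34 (SE 0.16), SAMD9L, a growth inhibitor, at 1.37 (SE 0.27), UBE2L6, an ISG15 conjugating enzyme, at 0.87 (SE 0.12) and IFIT5 at 0.63 (SE 0.13), against IRF9, a subunit of the interferon transcription complex, at -1.04 (SE 0.22) and IFIT1 at -0.96 (SE 0.20). Without wild type replicate 3 the count of rises was 7.

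Transcripts known as output of the ERK pathway rose more often than they fell. ERK, the last kinase of the RAS pathway, is known to induce its own phosphatases and Sprouty inhibitors. Of 20 tested genes 15 were higher and 0 lower, with a median of 0.68, and with the neighbours' median set to 0 the counts were 12 and 0. SPRY4, an inhibitor of the pathway, stood at 20.7, 22.5 and 17.4 CPM in the no MYCN libraries and 50.6, 49.01 and 49.00 CPM in those labelled wild type (log2 fold change 1.29, SE 0.12, edgeR adjusted p = 7.6e-08). PHLDA1, an early response gene, stood at 59.4, 54.6 and 56.2 CPM in the no MYCN libraries and 113, 117 and 111 CPM in those labelled wild type (log2 fold change 1.00, SE 0.09, edgeR adjusted p = 3.6e-08). CCND1, cyclin D1, stood at 375, 329 and 339.8 CPM in the no MYCN libraries and 857, 749.9 and 761 CPM in those labelled wild type (log2 fold change 1.18, SE 0.09, edgeR adjusted p = 1.9e-09). In these genes the 3 libraries of each group lay close together and the groups were wide apart.

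Of 23 AP-1 and early growth genes 11 were higher and 1 lower, with a median of 0.35. JUN, a core AP-1 subunit, stood at 67.2, 63.7 and 62.8 CPM in the no MYCN libraries and 113, 118 and 113 CPM in those labelled wild type (log2 fold change 0.82, SE 0.09, edgeR adjusted p = 4.6e-07). KLF2, a zinc finger factor, changed by 0.78 (SE 0.09) and CCN1, a matricellular protein, by 0.66 (SE 0.08). BHLHE40, a repressor of the circadian clock, was the exception, at 42.96, 56.7 and 49.1 CPM in the no MYCN libraries and 25.97, 23.8 and 22.9 CPM in those labelled wild type (log2 fold change -1.03, SE 0.12, edgeR adjusted p = 1.5e-06). Its relative BHLHE41 rose by 1.69 (SE 0.21). Of 16 tested growth factors of the EGF, FGF and VEGF families 6 were higher and 0 lower. FGF1 stood at 28.3, 30.8 and 29.5 CPM in the no MYCN libraries and 54.9, 54.2 and 58.04 CPM in those labelled wild type (log2 fold change 0.92, SE 0.10, edgeR adjusted p = 1.0e-06). FGF5 and VEGFA changed by 0.79 (SE 0.10) and 0.86 (SE 0.14), and EREG, an EGF receptor ligand, was low in all libraries, at 0.6199, 0.149 and 0.7200 and 3.13, 4.51 and 3.11 CPM. Of 30 genes of the YAP and TEAD pathway, which reads cell tension, 9 were higher and 3 lower. ANKRD1 stood at 242, 237 and 219 CPM in the no MYCN libraries and 386, 394 and 375 CPM in those labelled wild type (log2 fold change 0.73, SE 0.08, edgeR adjusted p = 3.8e-07), and AXL, a receptor kinase, changed by 0.52 (SE 0.08), while IGFBP3, an IGF binding protein, fell to 63.6, 66.5 and 62.5 CPM from 95.4, 91.7 and 101 CPM. Under either chromosomal setting, with library totals and without no MYCN replicate 2 or 3 the YAP count of rises was 5, and without no MYCN replicate 2 that of falls was 1.

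**Figure D4:**
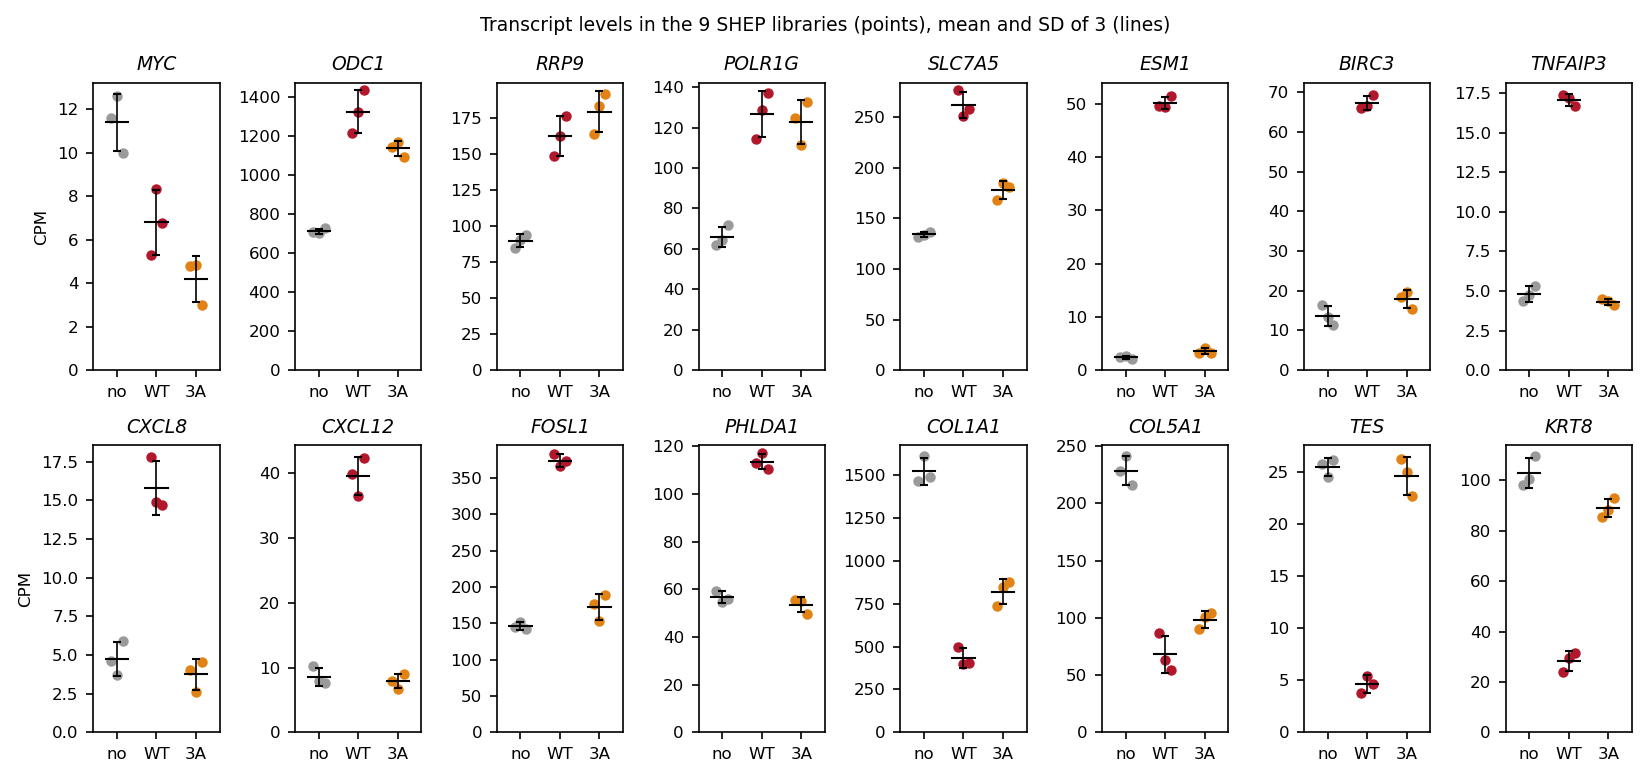
CPM (vertical axis, from 0) in each of the 9 SHEP libraries for 16 genes (panels), with libraries labelled no MYCN (no), wild type MYCN (WT) and 3A side by side, each point 1 library, and lines at the group mean and its SD. The 3 libraries labelled wild type stand above all others for BIRC3, TNFAIP3, CXCL8 and PHLDA1, and both MYCN labels stand above no MYCN for POLR1G and RRP9.

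More matrix transcripts fell than rose. Of 8 tested fibrillar collagens, the collagens that form the fibres of connective tissue, 5 were lower and 1 higher, with a median of -0.81. COL3A1 stood at 363, 378 and 389 CPM in the no MYCN libraries and 251, 214 and 195 CPM in those labelled wild type (log2 fold change -0.77, SE 0.09, edgeR adjusted p = 1.4e-06). COL5A2 stood at 446, 428 and 412 CPM in the no MYCN libraries and 281, 224 and 215 CPM in those labelled wild type (log2 fold change -0.84, SE 0.10, edgeR adjusted p = 1.7e-06). COL1A2 stood at 18.1, 22.8 and 25.8 CPM in the no MYCN libraries and 6.93, 6.23 and 7.63 CPM in those labelled wild type (log2 fold change -1.68, SE 0.19, edgeR adjusted p = 8.2e-07). In COL3A1 and COL5A2 every library labelled wild type was below every no MYCN library. COL1A2 is among the largest falls, whose rule required ranges that do not overlap. COL27A1, a minor fibrillar collagen, was the member that rose, by 0.50 (SE 0.16), and lost its call with library totals and without wild type replicate 1 or 2 or no MYCN replicate 1 or 2. COL5A3 and COL11A2 did not pass, at -0.54 (SE 0.59) and 0.93 (SE 0.78). Of 14 other collagens 5 were lower and 3 higher. COL6A2, of beaded filaments, changed by -0.72 (SE 0.10) although its chromosome, 21, stood high, and by -0.92 with the neighbours' median set to 0. COL7A1, of anchoring fibrils, changed by -1.29 (SE 0.21), and COL13A1, a membrane collagen, rose by 0.70 (SE 0.15). Without wild type replicate 1, no MYCN replicate 1 or no MYCN replicate 3, and under either chromosomal setting, 1 of these other collagens was called higher.

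Of 34 matrix glycoproteins and proteoglycans 16 were lower and 1 higher, with a median of -0.43. TGFBI, an adhesion protein induced by TGF-beta, stood at 805, 874 and 812 CPM in the no MYCN libraries and 299, 263 and 268 CPM in those labelled wild type (log2 fold change -1.59, SE 0.09, edgeR adjusted p = 1.1e-11). FBLN1, a fibulin of elastic fibres, stood at 102, 113 and 109 CPM in the no MYCN libraries and 56.5, 56.5 and 58.9 CPM in those labelled wild type (log2 fold change -0.92, SE 0.09, edgeR adjusted p = 1.6e-07). MFAP4, of microfibrils, stood at 8.43, 6.12 and 8.93 CPM in the no MYCN libraries and 1.495, 1.15 and 1.84 CPM in those labelled wild type (log2 fold change -2.38, SE 0.26, edgeR adjusted p = 7.2e-07). The groups were separate in FBLN1 and MFAP4. TGFBI is among the largest falls, whose rule required ranges that do not overlap. LTBP4, which anchors latent TGF-beta, was the member that rose, by 0.78 (SE 0.14). The count of rises was 4 without wild type replicate 3 and 2 under either chromosomal setting, without no MYCN replicate 1 and with no filter on low counts.

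Enzymes that act on the matrix moved both ways. Of 23 tested collagen processing enzymes 4 were higher and 4 lower, and of 24 matrix proteases and their inhibitors 4 were higher and 6 lower. LOX, which crosslinks collagen, stood at 73.5, 74.6 and 63.00 CPM in the no MYCN libraries and 148, 133 and 123 CPM in those labelled wild type (log2 fold change 0.94, SE 0.10, edgeR adjusted p = 5.2e-07). BMP1, which cleaves procollagen, stood at 67.3, 84.6 and 78.4 CPM in the no MYCN libraries and 43.2, 37.3 and 33.8 CPM in those labelled wild type (log2 fold change -1.01, SE 0.11, edgeR adjusted p = 7.6e-07). P4HA2, a prolyl hydroxylase, changed by -1.07 (SE 0.13) and COLGALT1, a collagen galactosyltransferase, by 0.42 (SE 0.08). MMP2, a gelatinase, changed by -0.81 (SE 0.09), against rises of the ADAMTS proteases ADAMTS1 at 1.41 (SE 0.16), ADAMTS6 at 1.17 (SE 0.16) and ADAMTS12 at 0.64 (SE 0.14) and a fall of ADAMTS3 at -0.96 (SE 0.28). Of 9 tested hyaluronan genes 2 were higher and 4 lower. The synthase HAS2 was among the 15 largest rises of the comparison, at 7.004, 4.40 and 7.63 CPM in the no MYCN libraries and 32.5, 34.3 and 27.7 CPM in those labelled wild type (log2 fold change 2.30, SE 0.18, edgeR adjusted p = 2.5e-09). HAS3, another synthase, was low in all libraries and changed by -2.65 (SE 0.47). The integrin ITGB8, which activates latent TGF-beta, went from 5.703, 5.598 and 3.600 to 0.6797, 1.29 and 1.41 CPM. LAMA5, a basement membrane laminin, changed by -1.19 (SE 0.18).

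Of 32 focal adhesion genes 12 were lower and 4 higher, with a median of -0.08, and 7 were lower without no MYCN replicate 3. FHL1, a LIM protein, and TNS2, a tensin, changed by -1.14 (SE 0.14) and -1.16 (SE 0.17). ZYX, zyxin, and PDLIM5 rose, by 0.38 (SE 0.08) and 0.58 (SE 0.09). TAGLN, of contractile cells, went from 138, 148 and 155 to 82.99, 102 and 106 CPM and SYNPO, synaptopodin, changed by -0.88 (SE 0.15). MYL12A, a myosin light chain gene on chromosome 18, rose by 0.57 (SE 0.09) and by 0.20 with the neighbours' median set to 0.

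In called genes of TGF-beta and Notch signalling falls outnumbered rises, but the medians of the groups were near 0, at -0.016 and 0.079. Of 28 tested TGF-beta and activin genes 14 were above 0, and of 14 Notch genes 8. Of 28 genes of the TGF-beta and activin pathway 7 were lower and 1 higher. PMEPA1, a feedback target of TGF-beta, stood at 62.8, 65.3 and 55.7 CPM in the no MYCN libraries and 22.2, 23.5 and 27.8 CPM in those labelled wild type (log2 fold change -1.32, SE 0.11, edgeR adjusted p = 2.1e-08). FSTL3, an activin antagonist, stood at 183, 178 and 209.8 CPM in the no MYCN libraries and 88.98, 94.7 and 103 CPM in those labelled wild type (log2 fold change -0.99, SE 0.09, edgeR adjusted p = 3.9e-08). FST, follistatin, the other antagonist, rose, at 19.03, 15.8 and 16.8 CPM in the no MYCN libraries and 66.2, 70.3 and 67.9 CPM in those labelled wild type (log2 fold change 1.98, SE 0.12, edgeR adjusted p = 6.2e-11). The antagonists moved in opposite directions. The ranges of FSTL3 did not overlap, and those of FST were apart by the rule for the 15 largest rises. TGFB1 changed by -0.43 (SE 0.09). The count of rises was 2 under either chromosomal setting, without wild type replicate 3 and with no filter on low counts. Of 14 Notch genes 4 were lower and 1 higher: HES1, a direct target, at 26.96, 37.3 and 34.1 CPM in the no MYCN libraries and 12.2, 15.8 and 12.1 CPM in those labelled wild type (log2 fold change -1.29, SE 0.14, edgeR adjusted p = 7.4e-07), the ligand JAG1 at -1.10 (SE 0.12) and the Fringe enzymes LFNG and RFNG at -1.33 (SE 0.16) and -0.61 (SE 0.13), RFNG at -0.40 with the neighbours' median set to 0, against the coactivator MAML3 at 1.19 (SE 0.29). The count of Notch rises was 2 without wild type replicate 3. Of 29 guidance genes 8 were higher, or 5 without wild type replicate 1, and 6 lower. SLIT2, a secreted guidance cue, stood at 17.9, 14.7 and 14.04 CPM in the no MYCN libraries and 76.9, 68.7 and 55.6 CPM in those labelled wild type (log2 fold change 2.10, SE 0.14, edgeR adjusted p = 3.3e-10). SEMA7A, a membrane semaphorin, changed by 1.19 (SE 0.12), and SLIT3 and the receptor PLXND1 by -1.29 (SE 0.13) and -1.28 (SE 0.15).

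Cell cycle genes were divided. Of 37 genes of G1 to S and DNA replication 7 were higher and 0 lower, and 4 were higher without no MYCN replicate 1 or 2. Of 37 mitosis genes 0 were higher and 11 lower, with a median of -0.16, and 7 were lower without wild type replicate 2 or no MYCN replicate 1. E2F1, the factor of S phase entry, stood at 94.5, 87.9 and 105 CPM in the no MYCN libraries and 117, 122 and 133 CPM in those labelled wild type (log2 fold change 0.37, SE 0.09, edgeR adjusted p = 0.0049). AURKA, a spindle kinase that also stabilises MYCN protein, stood at 358, 358 and 349.8 CPM in the no MYCN libraries and 258, 277 and 269 CPM in those labelled wild type (log2 fold change -0.41, SE 0.08, edgeR adjusted p = 3.9e-04). The small changes exceeded the spread in both. KIF4A, a chromosome kinesin, changed by -0.43 (SE 0.08), and the phosphatases CDC25B and CDC25C by -0.46 (SE 0.08) and -0.57 (SE 0.12), the latter by -0.37 with the neighbours' median set to 0. CDKN1A, the p21 inhibitor, went from 73.9, 77.4 and 81.1 to 57.4, 55.5 and 63.97 CPM, a change of -0.39 (SE 0.09), and was the only 1 of 4 tested kinase inhibitors called, a count that was 2 without wild type replicate 2 or no MYCN replicate 1, under either chromosomal setting and with no filter on low counts. Of 25 p53 targets 6 were higher and 7 lower. AEN, a nuclease, and FAS, the death receptor, rose by 0.62 (SE 0.10) and 0.92 (SE 0.18), and PHLDA3 changed by -0.68 (SE 0.10). The falls among p53 targets were 4 without wild type replicate 2 or 3 or no MYCN replicate 2 and 3 without no MYCN replicate 3, and the rises were 3 with the neighbours' median set to 0. BAX, which opens the mitochondrial membrane, rose by 0.43 (SE 0.09).

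Of 24 glycolysis genes 12 were higher and 2 lower, with a median of 0.24. HK2, the first enzyme, stood at 60.6, 45.5 and 47.7 CPM in the no MYCN libraries and 105, 93.3 and 89.3 CPM in those labelled wild type (log2 fold change 0.90, SE 0.11, edgeR adjusted p = 1.8e-06). PKM, the last, stood at 2366, 2506 and 2553 CPM in the no MYCN libraries and 3703, 3613 and 3782 CPM in those labelled wild type (log2 fold change 0.58, SE 0.09, edgeR adjusted p = 5.5e-05). Both genes were higher in every library labelled wild type. The lactate carriers moved apart: SLC16A1 rose by 0.57 (SE 0.09), and SLC16A3, on chromosome 17, changed by -0.65 (SE 0.10). The second fall was that of PFKFB4, which sets fructose bisphosphate, at -0.61 (SE 0.17), and 1 fall was called without no MYCN replicate 2. Of 25 cholesterol genes 2 (8.0%) were higher and 4 (16.0%) lower, near the 10.9 and 11.3% of all tested genes. ACAT2, at the start of the pathway, stood at 26.4, 31.1 and 35.7 CPM in the no MYCN libraries and 13.6, 12.8 and 17.9 CPM in those labelled wild type (log2 fold change -1.07, SE 0.15, edgeR adjusted p = 2.1e-05), and TM7SF2, a sterol reductase, changed by -1.58 (SE 0.23). Without wild type replicate 2 the falls were 2, and the rises were 0 or 1 with library totals, with chromosome medians set to 0 and without any library but no MYCN replicate 3.

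The identity markers were mostly those of a mesenchymal line. VIM stood at 4012, 4322 and 4116 CPM in the no MYCN libraries and 5029, 5465 and 5492 CPM in those labelled wild type, and of 10 tested mesenchymal markers 5 were higher and 3 lower. PRRX1, a mesenchymal homeobox factor, and FOSL1 of AP-1 rose, PRRX1 by 0.46 (SE 0.11), and FN1, fibronectin, and SNAI2, a repressor, changed by -0.62 (SE 0.12) and -0.66 (SE 0.17). With chromosome medians set to 0 the count of rises was 3, VIM and CD44 among those lost. Of 10 adrenergic markers 3 were tested, GATA3, HAND2 and ISL1, and none was called. HAND2 was at 0.25 (SE 0.09) with an edgeR adjusted p of 0.051, and 1 of the 3 was called without wild type replicate 1, with DESeq2 and with its size factors. HAND2 was well counted, at 56.1, 61.1 and 62.9 CPM in the no MYCN libraries and 68.2, 71.4 and 75.1 CPM in those labelled wild type. GATA3 stood at 8.49, 8.06 and 7.92 and at 8.16, 8.74 and 6.92 CPM. Of 11 tested adrenergic transcription factors, GATA3 and HAND2 among them, 3 (27.3%) were higher and 0 lower, and 2 higher under either chromosomal setting. Of 10 markers each, 2 leukocyte, 2 epithelial, 3 endothelial and 3 Schwann cell markers were tested. TH, DBH and CHGA, which define adrenergic cells, had 0 counts in all 6 libraries. CD3E and CD3D of lymphocytes, KRT5 and CLDN4 of epithelia, CLDN5 of endothelium and S100B of Schwann cells were also at 0. Other markers of these lists were counted. CD68 of leukocytes stood at 12.9, 14.5 and 11.9 and at 14.95, 16.4 and 15.5 CPM. EGFL7 of endothelium stood at 6.63, 6.57 and 8.28 and at 5.03, 4.44 and 7.48 CPM. Neither was called. Of the 3 tested Schwann cell markers PMP22 was called lower, and lost the call in 4 of 14 alternatives. KRT8 and KRT18, keratins that mesenchymal cells can share, were the 2 tested epithelial markers, and KRT18 stood at 900.2, 1017 and 1034 CPM in the no MYCN libraries and 584, 630.5 and 690.0 CPM in those labelled wild type. NES, nestin, was low, at 3.47, 4.33 and 2.304 and 0.136, 0.287 and 0.424 CPM.

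The libraries labelled 3A had the same doxycycline. They share the fit and, in each comparison with no MYCN, the same control libraries, so each group's own values are set side by side. The median of the large subunit assembly factors, each library against the mean of the no MYCN libraries, was 0.32, 0.33 and 0.35 in the libraries labelled wild type and 0.42, 0.36 and 0.42 in those labelled 3A. That of the fibrillar collagens was -1.004, -0.88 and -0.97 with the wild type label and -0.71, -0.99 and -0.68 with the 3A label. Both groups of libraries were on the same side of the no MYCN libraries in these. That of the ERK genes was 0.83, 0.56 and 0.60 and 0.03, -0.03 and -0.01. That of the chemokines was 0.81, 0.89 and 0.60 and 0.02, 0.14 and 0.08, and that of the NF-kB feedback genes 0.41, 0.26 and 0.37 and -0.10, -0.08 and -0.07. In these the 3A libraries lay near the no MYCN libraries. The integrated stress response lay between, at 0.35, 0.42 and 0.54 and 0.16, 0.17 and 0.25.

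**Figure D5:**
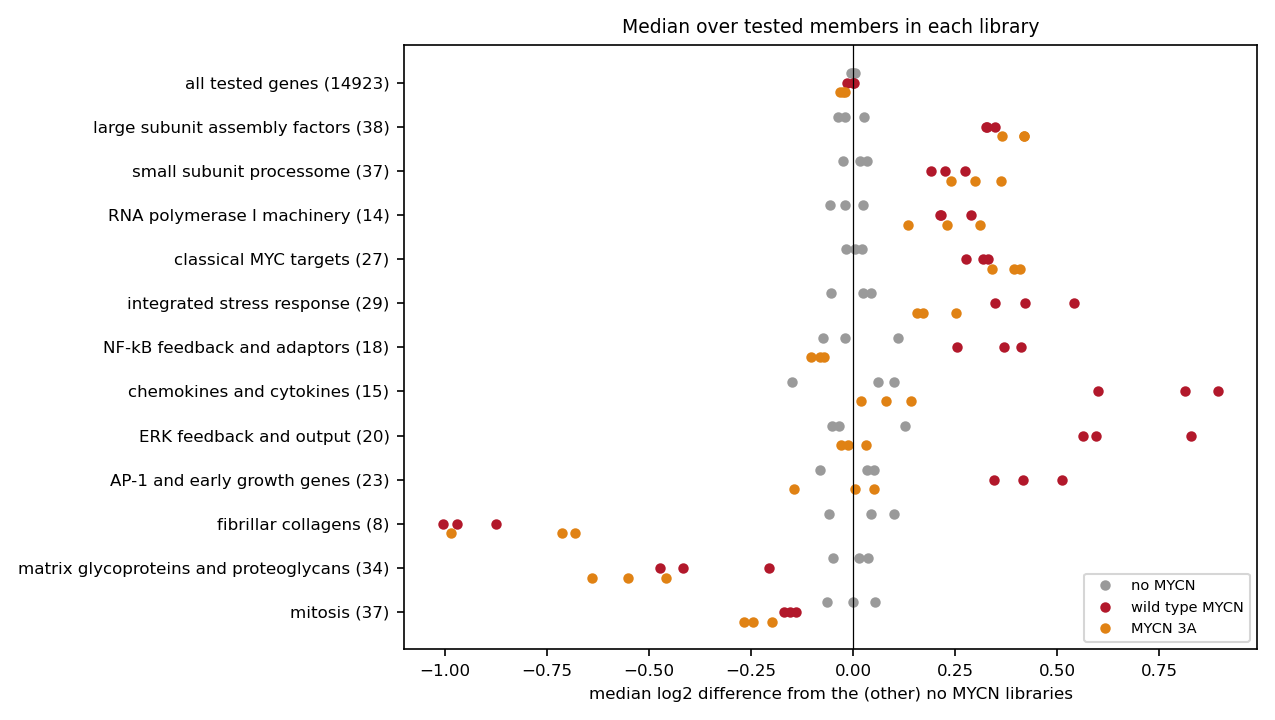
Median log2 difference from the no MYCN libraries (horizontal axis) over the tested members of 12 gene groups and over all tested genes (rows, number of genes in brackets), each point 1 of the 9 SHEP libraries, coloured by label; a no MYCN library is set against the other no MYCN libraries. ERK genes stand at 0.56 to 0.83 in the libraries labelled wild type and at -0.03 to 0.03 in those labelled 3A.

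Between the libraries labelled wild type and 3A, 4527 of the 14923 genes (30.3%) differed in edgeR's test. CXCL8 was at 4.03, 2.64 and 4.57 CPM with 3A, and the wild type minus 3A difference was 2.07 (SE 0.22, edgeR adjusted p = 4.3e-07). SPRY4 was at 18.05, 19.3 and 17.03 CPM with 3A, with a difference of 1.45 (SE 0.12, edgeR adjusted p = 1.7e-08). TNFAIP3 was at 4.48, 4.395 and 4.099 CPM with 3A, with a difference of 1.98 (SE 0.18, edgeR adjusted p = 3.9e-08). In each of these genes the 3A libraries were all below those labelled wild type. POLR1G was at 125, 111 and 133 CPM with 3A, with a difference of 0.04 (SE 0.09, edgeR adjusted p = 0.76), and EBNA1BP2 at 493, 482 and 512 CPM, with 0.01 (SE 0.09, edgeR adjusted p = 0.96). The differences of POLR1G and EBNA1BP2 did not pass, which does not show that the forms act alike. HES1 was at 31.9, 33.8 and 33.5 CPM with 3A, near the no MYCN level, with a difference of -1.31 (SE 0.14, edgeR adjusted p = 8.4e-07). JAG1 was at 53.6, 49.6 and 41.7 CPM, near the wild type level, with a difference of -0.11 (SE 0.12, edgeR adjusted p = 0.5). MYC was at 4.77, 4.83 and 2.996 CPM with 3A, and the wild type minus 3A difference was 0.69 (SE 0.23, edgeR adjusted p = 0.025). Chromosome 18 stood 0.44 higher in the libraries labelled wild type than in those labelled 3A, and chromosome 14 at -0.22, so gene values from these chromosomes carry that shift in both comparisons.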

How the data were processed

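Polyadenylated RNA of SHEP cells was sequenced in 3 libraries a group. The deposited table holds raw counts per gene, which the authors made with featureCounts 2.0.3 after mapping with STAR 2.7.10a, per the submitters' processing notes and the file headers. Per the file headers, the strand setting was 2, the minimum overlap 10 bases, both ends had to map, chimeric pairs were dropped, reads over several genes counted for each, and gene models were Ensembl release 87 on GRCh37 (hg19). Reads of overlapping genes on a strand, and of ribosomal protein genes and their pseudogenes, can therefore be shared. Intervals and the floor of 3 counts cover counting error only.

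Columns were joined to samples by construct name and replicate number. Low genes were removed by filterByExpr and libraries scaled by TMM factors. Then edgeR 4.0.16 (R 4.3.3, limma 3.58.1) fitted all 9 SHEP libraries with its robust quasi-likelihood F test and Benjamini-Hochberg adjustment at 0.05. The biological coefficient of variation was 0.108. Log2 CPM used a prior count of 2. Alternatives were DESeq2 1.42.0 and its size factors, library totals, no filter on low counts, a replicate block, the 6 libraries alone and each library left out. Chromosome medians, or medians of 101 neighbouring genes, were set to 0 as offsets, chosen after seeing the data. The edgeR step was tested on simulated data.

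The members, gene lists and tests were chosen with earlier results of these data known. Named genes are MYCN, MYC, EXOSC10, the 15 largest rises and falls (called genes with non-overlapping ranges and a mean log2 CPM of 3 or more), and of each list the 4 called members with the smallest p, those against its direction and all members of lists of at most 12. Promoters came from the RefSeq table on GRCh38.p14, with a sequence for 83.0% of tested protein-coding genes. Some genes that this rule names are not reported here. Other samples of the series were not analysed here.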

Additional observations from a re-analysis of the deposited data

How the results depend on the processing

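The counts of 1634 higher and 1681 lower genes kept within 1.5 times under the scalings, tools and filters tried. They were 1127 to 1744 higher and 1064 to 1714 lower when single libraries were left out, the 1064 without wild type replicate 2. Same-numbered libraries had residual correlations of 0.138, -0.002 and 0.113, and replicates 1 and 3 across the 2 labels -0.134 and -0.120. Some gene groups kept an order by replicate number within each label. Integrin medians were 0.18, 0.02 and -0.16 without MYCN, 0.18, -0.10 and -0.32 with wild type and -0.34, -0.50 and -0.67 with 3A. Whether the number marks a shared batch was not tested. The labels describe no pairing, so the main fit used none. With the replicate number as a block the counts were 2135 and 2049. Of 268 named genes, all called but EXOSC10, 73 lost the call in at least 1 of the 14 alternatives. The values that changed sign were those of ATP5F1A (-0.0138 with chromosome medians set to 0 and -0.0202 with neighbourhood medians set to 0) and NDUFV2 (-0.0013 with chromosome medians set to 0). Of 1652 counts of list members 1419 stayed within 1.5 times. The set planned for the motifs was genes changed at least 2-fold. A promoter was known for 72.4% of those higher and 79.3% of those lower, so the shares cover only part of the set. The E-box was in 9.09% of those higher, against 10.2% of all tested genes, and in 6.69% of those lower. TGANTCA was in 10.9% of those higher and 7.36% of those lower, and the NF-kB string in 7.27% of those higher. Among all called genes the shares were 13.8, 6.90, 5.67, 4.76 and 3.32% in the same order. By non-overlapping ranges in place of the test, the share of higher genes was 34.3% in the lowest of the 4 classes of level and 66.5% in the highest. Depth limits the lowest genes: in the lowest class a few counts set the fold change.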
